A study of Homo sapiens with 6 samples.

Results

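The 10 genes ATF4, ATF3, DDIT3, TRIB3, ASNS, CHAC1, SESN2, HERPUD1, PSAT1 and PHGDH, a set built around the amino acid stress response of the transcription factor ATF4, were examined in HuCCT1 cells with and without a CD90 transgene. They were taken by symbol from a table of 20811 genes, and all 10 were found in it. HuCCT1 cells derive from a human bile duct cancer of the liver (intrahepatic cholangiocarcinoma). HuCCT1/CD90+ cells received human THY1-CMV-GFP, a lentivirus with the CD90 gene THY1, whereas Lenti-CMV-GFP-2A-Puro-Blank Lentivirus was given to HuCCT1/CD90- cells, so both lines carried a CMV-GFP vector and both were grown in RPMI with serum. There were 3 libraries of each line, made from total RNA with a panel that reads each gene over 1 amplicon. The labels do not say whether the 3 libraries came from separate cultures, so the p-values measure the spread between these libraries, which may be technical. Whether either line is 1 clone is not given in the sources used here.

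When amino acids run short or unfolded proteins build up in the endoplasmic reticulum, kinases that sense these stresses phosphorylate the initiation factor eIF2, which lowers protein synthesis as a whole but favours translation of ATF4 mRNA. ATF4 then pairs with C/EBP and other partners and turns on genes for amino acid synthesis and uptake, for further transcription factors and for brakes on the response. ATF4 is regulated to a large extent at translation, so its mRNA level is only part of its activity.

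The libraries held 8587634 to 10551516 reads on genes, and 3 reads corresponded to 0.284 to 0.349 RPM (reads scaled to a common library total), used here as a floor for counting error. THY1 reads numbered 0, 1 and 0 in HuCCT1/CD90- and 435, 445 and 680 in HuCCT1/CD90+. The 10 markers of biliary epithelium summed to between 8288 and 9383 RPM in HuCCT1/CD90- and between 11382 and 12091 RPM in HuCCT1/CD90+. The leukocyte marker PTPRC and the hepatocyte marker ALB had at most 1 read in any library. The summed levels of the other marker lists were lower in HuCCT1/CD90+, with 131 to 155 against 89.0 to 107 RPM for leukocyte, 47.3 to 73.0 against 23.05 to 26.6 RPM for fibroblast and stellate, 14.9 to 23.4 against 1.29 to 1.86 RPM for endothelial and 3.98 to 6.21 against 0.326 to 0.814 RPM for hepatocyte markers. The genes of a list did not all move alike, since CD14, a leukocyte marker, fell from 80.8 ± 10.1 to 4.32 ± 0.19 RPM (adjusted p = 0.00037) while CD68 of the same list rose from 50.8 ± 4.50 to 92.2 ± 8.39 RPM (adjusted p = 0.0089). Their part in the results was not tested. In bulk RNA a change in every cell and a change in the share of cells that express a gene cannot be told apart.

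Sequences at the start sites were inspected because ATF4 and its C/EBP partners bind a composite element. RefSeq windows of 300 bases (250 before and 50 after a start, GRCh38.p14) matched all 10 genes, some with several starts, 16 windows in all. The core TGATGNAA, on either strand, was present in 4 of the 16 windows, those of 4 genes, and in 3.62% of all 35116 windows. It lay 68 bases before a start of ASNS, 209 before that of CHAC1, 176 before that of HERPUD1 and 191 before a start of ATF3. HERPUD1 also held the endoplasmic reticulum stress element II, a longer word searched on both strands as well, 117 bases before its start, without overlap with the first match, and 0.0541% of all windows held that element. The cyclic AMP response element TGACGTCA was in none of the 16 windows and in 1.85% of all windows. These are matches of letters in the reference and not binding data. The 4 windows with a match are printed 5′ to 3′ on the strand of the gene, with the matches in capitals.
ASNS, chr7:97872359-97872658, minus strand: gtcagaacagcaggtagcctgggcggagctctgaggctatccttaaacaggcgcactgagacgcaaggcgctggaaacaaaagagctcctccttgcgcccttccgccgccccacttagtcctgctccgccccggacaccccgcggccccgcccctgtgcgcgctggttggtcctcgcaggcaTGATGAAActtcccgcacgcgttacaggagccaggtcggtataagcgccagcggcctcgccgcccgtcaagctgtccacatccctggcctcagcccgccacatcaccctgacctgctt
CHAC1, chr15:40953221-40953520, plus strand: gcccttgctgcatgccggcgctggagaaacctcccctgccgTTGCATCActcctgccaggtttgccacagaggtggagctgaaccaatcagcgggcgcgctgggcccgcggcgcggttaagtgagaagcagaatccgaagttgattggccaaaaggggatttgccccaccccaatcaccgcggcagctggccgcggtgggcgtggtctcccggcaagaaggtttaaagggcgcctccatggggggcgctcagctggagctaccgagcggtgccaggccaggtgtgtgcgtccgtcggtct
HERPUD1, chr16:56931892-56932191, plus strand: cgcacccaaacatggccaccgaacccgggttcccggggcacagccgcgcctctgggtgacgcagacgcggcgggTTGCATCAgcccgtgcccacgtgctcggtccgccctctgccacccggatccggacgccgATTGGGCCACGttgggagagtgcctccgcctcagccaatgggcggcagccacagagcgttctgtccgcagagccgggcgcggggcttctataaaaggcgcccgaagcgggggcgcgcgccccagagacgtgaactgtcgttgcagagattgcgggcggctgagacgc
ATF3, chr1:212565157-212565456, plus strand: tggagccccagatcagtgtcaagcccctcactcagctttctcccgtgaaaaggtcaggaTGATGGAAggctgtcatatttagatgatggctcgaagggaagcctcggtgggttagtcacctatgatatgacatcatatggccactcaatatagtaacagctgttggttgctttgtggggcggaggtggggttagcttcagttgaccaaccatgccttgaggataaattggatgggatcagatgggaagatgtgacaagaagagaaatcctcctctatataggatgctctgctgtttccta

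ASNS and HERPUD1, 2 of the 10 genes, rose in HuCCT1/CD90+ and none fell, by limma on log2(RPM + 1) with the adjusted p (Benjamini-Hochberg, all genes) called up to 0.05. Of all 20811 genes, 9.41% were called higher, 9.52% lower and 18.9% in either direction by this rule. The study called genes that changed 1.5-fold or more with an unadjusted p up to 0.05, and by that rule 4 of the 10 were called, all higher, with ATF3 and TRIB3 added, against 20.1% of all genes. At that unadjusted p alone it was the same number, 4 higher and 0 lower, against 31.1% of all genes in either direction. The number called differed between fits, and so did the share of all genes called. It was 5 among genes averaging 1 RPM or more (41.7% of genes called), 4 among those averaging 10 RPM or more (42.2%), 4 with median centring (24.7%), 5 with edgeR on recovered reads after a filter (44.4%), 6 with edgeR without one (27.6%) and 4 with DESeq2 (37%). PHGDH was the 1 gene called lower, and it was called among genes averaging 1 RPM or more (adjusted p = 0.026) or 10 RPM or more (0.018) and by edgeR with the filter (0.0050) and without it (4.9e-07), but not with median centring (0.11) or by DESeq2 (0.094). The libraries of the lines did not overlap for 4 genes, ASNS, ATF3, TRIB3 and HERPUD1, each higher in HuCCT1/CD90+, against 17.3% of all genes without overlap in that direction and 17.7% in the other. The median log2 fold change of the 10 was 0.82, or 0.90 without PSAT1, which was at the floor in both lines, and that of all genes was 0.

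Libraries carried the numbers 1 to 3 in both lines, and libraries with the same number deviated together. A fit with the number as a block is therefore given where it changed the call of 1 of the 10 genes or of a gene named from the wider lists. Its adjusted p is then called blocked. In that fit 3 of the 10 genes passed, ATF3 and HERPUD1 higher and PHGDH lower, against 13.1% of all genes. With the block the adjusted p of ASNS was 0.055 and that of TRIB3 0.072.

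**Figure D1:**
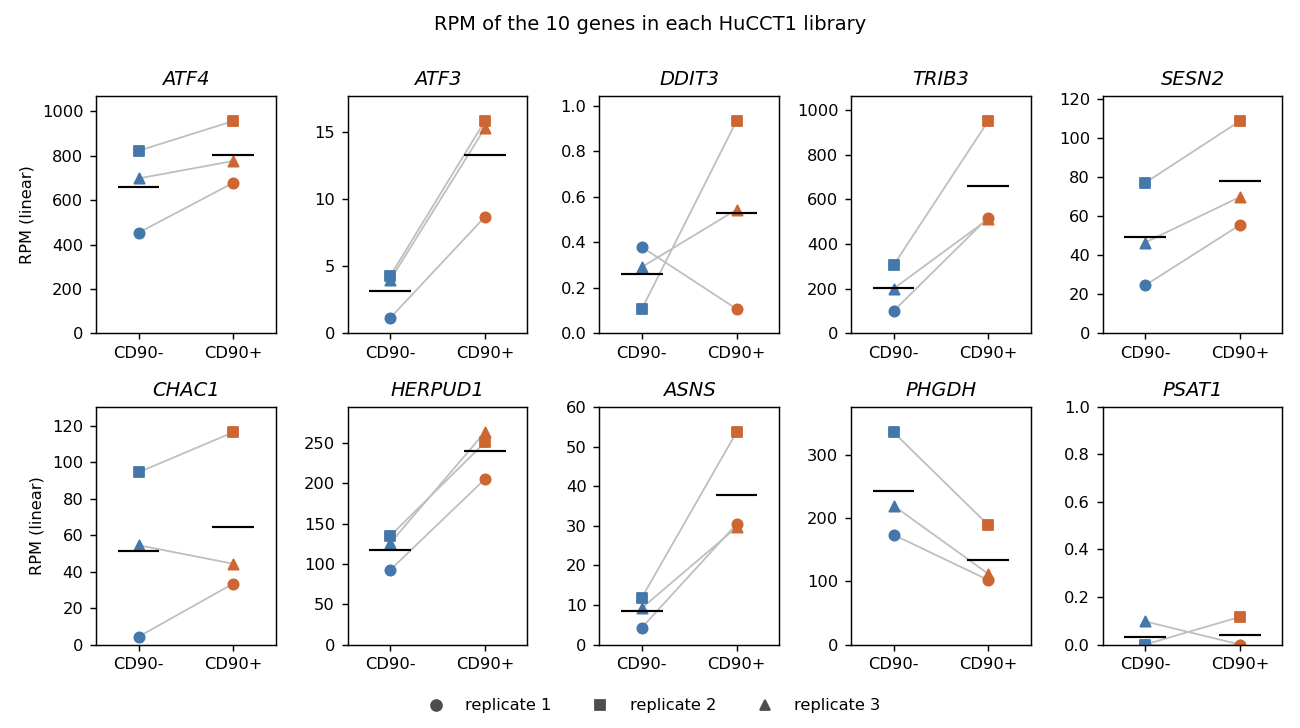
RPM of the 10 genes on linear axes in the 3 libraries of each line, with symbols for the replicate number, grey lines between libraries of the same number and black bars for the mean. The lines do not overlap for ATF3, TRIB3, HERPUD1 and ASNS, PHGDH is lower at the HuCCT1/CD90+ end of each grey line, and DDIT3 and PSAT1 stay under 1 RPM.

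ATF4, the factor that gives the response its name, was abundant, and its difference between the lines was within the spread of the libraries. It had 453, 822 and 698 RPM in HuCCT1/CD90- and 678, 956 and 776 RPM in HuCCT1/CD90+. The ranges overlapped, since HuCCT1/CD90- replicates 2 and 3 were above HuCCT1/CD90+ replicate 1, but in each of the 3 same-numbered pairs the HuCCT1/CD90+ library was the higher one. The log2 fold change was 0.32 (SE, its standard error, 0.28, adjusted p = 0.57), with a 95% confidence interval from -0.43 to 1.06. With the replicate block the interval was -0.12 to 0.75. Without HuCCT1/CD90- replicate 1 the log2 fold change was 0.070, and with each library left out in turn it ran from 0.070 to 0.50. RefSeq lists 4 pseudogenes of ATF4, and reads of such copies could not be told apart from those of the gene.

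Among the factors and regulators that ATF4 induces, ATF3 and TRIB3 were the farthest apart between the lines. ATF3, a bZIP transcription factor of the stress response, had 1.14, 4.28 and 3.98 RPM in HuCCT1/CD90- and 8.68, 15.8 and 15.3 RPM in HuCCT1/CD90+. Its lowest HuCCT1/CD90+ library was above its highest HuCCT1/CD90- library. The counts behind these values were 12 to 41 reads in HuCCT1/CD90- and 81 to 141 in HuCCT1/CD90+. Its log2 fold change was 1.85 (SE 0.47, adjusted p = 0.064), and with the replicate block, where the adjusted p was 0.034, the difference passed. Without the block ATF3 passed among genes averaging at least 1 RPM (adjusted p = 0.00086). On recovered reads it passed by edgeR after a filter (6.3e-05) and by DESeq2 (1.7e-07). With 1 library left out its adjusted p by limma was 0.077 to 0.18.

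TRIB3, a pseudokinase that binds ATF4 and damps its activity, had 99.6, 304 and 199 RPM in HuCCT1/CD90- and 518, 950 and 511 RPM in HuCCT1/CD90+. The lines did not overlap, although replicate 2 was well above the other libraries in both of them. The means were 201 ± 102 and 659.8 ± 251 RPM (SD, n = 3 each), 3.28-fold apart. The log2 fold change was 1.79 (SE 0.52, 95% confidence interval from 0.39 to 3.18), and it missed the threshold over all genes (adjusted p = 0.092). It passed among the genes averaging at least 1 RPM (adjusted p = 0.0020) and on recovered reads with DESeq2 (adjusted p = 0.0042).

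DDIT3 encodes CHOP, a C/EBP family factor linked to cell death after prolonged stress, and it was near the floor in both lines. It had 4, 1 and 3 reads in HuCCT1/CD90- and 1, 8 and 5 reads in HuCCT1/CD90+. The libraries overlapped, and a difference was not detectable at this depth (log2 fold change 0.25 on the RPM + 1 scale, 95% confidence interval from -0.39 to 0.88, adjusted p = 0.58). Without HuCCT1/CD90+ replicate 2 the log2 fold change was 0.060, and without HuCCT1/CD90+ replicate 1 it was 0.46.

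HERPUD1 encodes a membrane protein of the endoplasmic reticulum that takes part in degradation of misfolded proteins, and it was the steadiest of the 4 genes without overlap. It had 92.5, 135 and 126 RPM in HuCCT1/CD90- and 205, 251 and 263 RPM in HuCCT1/CD90+. The coefficient of variation was 18.9% in HuCCT1/CD90- and 12.8% in HuCCT1/CD90+. It rose 2.04-fold on the means, with a log2 fold change of 1.03 (SE 0.19, adjusted p = 0.028), and it passed with the replicate block as well (adjusted p = 0.028). When 1 library was left out, it passed without HuCCT1/CD90- replicate 1 (adjusted p = 0.041), and in the other 5 cases its adjusted p was between 0.055 and 0.098. HERPUD1 lies on chromosome 16, where the 421 genes averaging at least 10 RPM had a median log2 fold change of -0.30, opposite in sign to its own.

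CHAC1 and SESN2 did not pass by limma, with or without the block. CHAC1 encodes an enzyme that breaks down glutathione, and it had 4.27, 94.4 and 54.4 RPM in HuCCT1/CD90- and 33.3, 116 and 44.3 RPM in HuCCT1/CD90+. The libraries of the lines overlapped, and within HuCCT1/CD90- the highest library was 22.1 times the lowest. Its difference on the log2 scale was 0.90 (95% confidence interval from -2.61 to 4.42, adjusted p = 0.79), and without HuCCT1/CD90- replicate 1 it was -0.36 (adjusted p = 0.92). On recovered reads edgeR after a filter gave a log2 fold change of 0.36 (adjusted p = 0.64).

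SESN2, or sestrin 2, is a leucine sensor that restrains mTORC1. It had 24.5, 77.0 and 46.5 RPM in HuCCT1/CD90- and 55.4, 109 and 69.8 RPM in HuCCT1/CD90+. The ranges overlapped, but the HuCCT1/CD90+ library was higher in each of the 3 same-numbered pairs. The log2 fold change was 0.74 (95% confidence interval from -0.64 to 2.11, adjusted p = 0.46), and with the replicate block the interval was 0.065 to 1.41 (adjusted p = 0.14). On recovered reads SESN2 passed with edgeR without a filter (adjusted p = 0.00051), and not with edgeR after a filter (0.067) or DESeq2 (0.34). Without HuCCT1/CD90- replicate 1 its log2 fold change was 0.32, and without HuCCT1/CD90- replicate 2 or HuCCT1/CD90+ replicate 2 it was 1.125 and 0.47.

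The 3 enzymes of amino acid synthesis gave 3 different results. ASNS, which makes asparagine from aspartate and glutamine, had 4.27, 11.9 and 9.22 RPM in HuCCT1/CD90- and 30.4, 53.7 and 29.6 RPM in HuCCT1/CD90+. The lowest HuCCT1/CD90+ library was above the highest HuCCT1/CD90- library. ASNS rose 4.49-fold, between means of 8.45 ± 3.86 and 37.9 ± 13.7 RPM (SD, n = 3 per line). The log2 fold change, from the means of log2(RPM + 1), was 2.08 (SE 0.45, 95% confidence interval from 0.89 to 3.28, adjusted p = 0.043). When 1 library was left out, the log2 fold change stayed between 1.71 and 2.35, and the adjusted p was 0.067 to 0.11. ASNS lies on chromosome 7, where 404 genes averaging at least 10 RPM had a median log2 fold change of 0.52 and 85.6% were higher in HuCCT1/CD90+. With that median taken off, its log2 fold change was 1.56. RefSeq lists 4 pseudogenes of ASNS.

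PHGDH, the first enzyme of serine synthesis from glucose, was lower in HuCCT1/CD90+ in each same-numbered pair. It had 173, 335 and 219 RPM in HuCCT1/CD90- and 102, 189 and 112 RPM in HuCCT1/CD90+. The ranges overlapped, since HuCCT1/CD90+ replicate 2 was above HuCCT1/CD90- replicate 1, and replicate 2 was the highest library in both lines. The log2 differences within pairs were -0.76, -0.82 and -0.97 for numbers 1, 2 and 3. On the log2 scale the difference was -0.85 (SE 0.37, adjusted p = 0.22), and with the replicate block the SE was 0.055 and PHGDH passed (adjusted p = 0.028). PHGDH lies on chromosome 1, whose 957 genes averaging at least 10 RPM had a median log2 fold change of -0.32, and with that median taken off its own was -0.53. ATF3 and SESN2 lie on the same chromosome, and with the median taken off their log2 fold changes were 2.17 and 1.06.

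PSAT1, which carries out the next step of serine synthesis after PHGDH, had 0, 0 and 1 read in HuCCT1/CD90- and 0, 1 and 0 reads in HuCCT1/CD90+. Both lines were at or under the floor of 3 reads per library, and no fold is given. RefSeq lists 4 pseudogenes of PSAT1. The place of the amplicon in the transcript is not given in the sources used here.

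**Figure D2:**
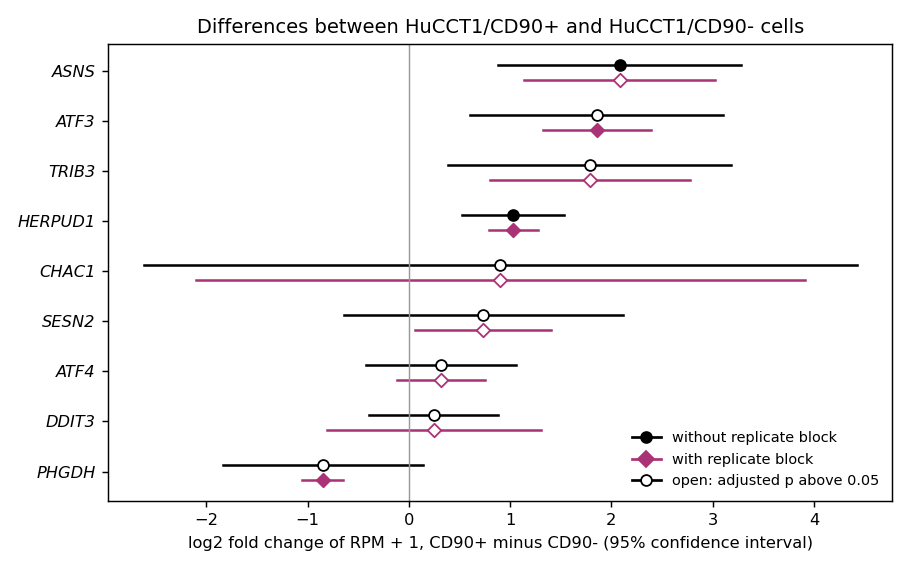
Log2 fold change (HuCCT1/CD90+ minus HuCCT1/CD90-, on log2(RPM + 1)) with unadjusted 95% confidence intervals for 9 genes, without (black circles) and with (purple diamonds) the replicate block. Filled symbols mark an adjusted p up to 0.05, which ASNS and HERPUD1 reach without the block and ATF3, HERPUD1 and PHGDH with it, and CHAC1 has the widest interval.

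Within each line the genes moved together from library to library. After the mean of its line was taken from each library, the mean deviation of the 8 genes averaging at least 1 RPM was -0.88, 0.66 and 0.22 on the log2 scale in HuCCT1/CD90- replicates 1, 2 and 3. In HuCCT1/CD90+ replicates 1, 2 and 3 it was -0.37, 0.48 and -0.11. Replicate 1 was thus on average the low library and replicate 2 the high one in both lines.

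This held for single genes as well. Replicate 1 was the lowest library in both lines for 6 of the 8 genes, against 19.4% of the 12062 genes averaging at least 1 RPM, and replicate 2 the highest in both for 7 of the 8, against 19.1%. For ASNS and TRIB3, replicates 1 and 3 of HuCCT1/CD90+ were close, with 30.4 and 29.6 RPM for ASNS. For HERPUD1, replicate 3 was the highest HuCCT1/CD90+ library. The amplitude differed between genes, from CHAC1, with deviations from -2.53 to 1.65 in HuCCT1/CD90-, to HERPUD1, with deviations from -0.33 to 0.21.

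Between pairs of the 8 genes, the Pearson correlation of these deviations over the 6 libraries had a median of 0.93 and ran from 0.69 for HERPUD1 and PHGDH to 0.99 for TRIB3 and ASNS. ATF4 itself correlated with the other 7 at 0.90 to 0.99, highest for CHAC1 and SESN2 and lowest for PHGDH. These values are a description, since the 6 points come from 6 libraries with 2 means taken out and share the libraries' differences in RNA and depth. PHGDH thus varied with the other genes between libraries, while it was lower in HuCCT1/CD90+ within each pair and ASNS was higher.

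**Figure D3:**
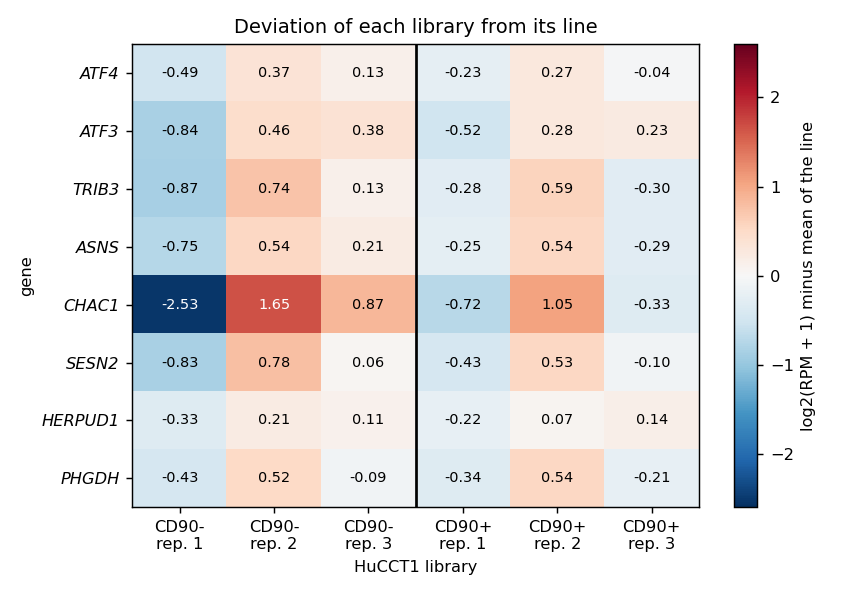
Deviation of log2(RPM + 1) in each of the 6 libraries from the mean of its line, for the 8 genes averaging at least 1 RPM, with the values printed in the cells. Replicate 1 is below the mean of its line for each gene in both lines and replicate 2 above it, and CHAC1 shows the widest deviations, from -2.53 to 1.65.

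The genes most like the mean deviation of the 8, among 8787 other genes averaging at least 10 RPM, were DUSP5, C2CD2, C15orf39, MT1E and SLC1A4, with correlations of 0.998 to 0.999 over the 6 libraries. SLC1A4, a carrier of neutral amino acids, had 57.9, 110.2 and 88.5 RPM in HuCCT1/CD90- and 58.7, 83.0 and 65.6 RPM in HuCCT1/CD90+. For the level of ATF4 over the 6 libraries, the most similar were DAK (0.995), ZBTB33 (0.993), RBM45 (0.992), ERCC3 (0.988) and GLT25D1 (0.988). Of the 12062 genes averaging 1 RPM or more, 1613 correlated above 0.8 with the mean deviation, so a high value over 6 libraries is not particular to these genes.

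The rest of the pathway was examined with 6 lists of 126 genes in the table. For the carriers that bring in amino acids under ATF4 control, the calls depended on the fit. Of 10 transporters, 0 passed at an adjusted p up to 0.05 by limma over all genes, against 18.9% of all genes, and 1 was lower at an unadjusted p up to 0.05 (31.1% of all genes in either direction). By limma on genes averaging at least 1 RPM, 1 was higher and 1 lower (41.7%). On recovered reads edgeR after a filter (44.4%) called 2 higher and 1 lower and DESeq2 (37%) 0 higher and 1 lower. SLC7A5, the light chain of a leucine carrier, had 458, 774 and 619 RPM in HuCCT1/CD90- and 268, 424 and 301 RPM in HuCCT1/CD90+. It showed no overlap between the lines, its log2 fold change was -0.89 (adjusted p = 0.11), and with the replicate block it passed (adjusted p = 0.034). It was also called on genes averaging at least 1 RPM (adjusted p = 0.0081), by edgeR after a filter (0.00065) and by DESeq2 (6.6e-05). SLC7A5 lies on chromosome 16, and with the chromosome median taken off its log2 difference was -0.59. SLC7A11, the cystine carrier, averaged 14.1 ± 7.80 RPM in HuCCT1/CD90- against 31.5 ± 3.85 RPM in HuCCT1/CD90+ (SD, n = 3 each), without overlap (log2 fold change 1.28, adjusted p = 0.21). SLC7A11 passed on genes averaging at least 1 RPM (adjusted p = 0.016) and by edgeR after a filter (0.0036) but not by DESeq2 (0.070), and its log2 fold change was 0.72 without HuCCT1/CD90- replicate 1. These 2 were named after their values were seen. Between libraries of a line, 8 of the 9 transporters averaging at least 1 RPM correlated above 0.8 with the mean deviation of the 8 genes, against 13.4% of all 12062 such genes.

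Enzymes of amino acid synthesis were called in both directions. Of 24 genes, 5 were higher and 2 lower in HuCCT1/CD90+, against 9.41% and 9.52% of all genes. The median log2 fold change was 0.094. With the replicate block 3 were higher and 1 lower, against 6.72% and 6.4% of all genes. Of the 21 averaging at least 1 RPM, limma on such genes called 6 higher and 3 lower (41.7% of genes called). On recovered reads edgeR after a filter (44.4%) called 7 higher and 3 lower and DESeq2 (37%) 6 higher and 3 lower. The 3 largest rises were in genes of arginine synthesis and branched-chain amino acid breakdown. ASS1, argininosuccinate synthase, rose from 27.1 ± 9.03 to 124 ± 8.05 RPM (a log2 difference of 2.21, adjusted p = 0.012). BCAT2, the mitochondrial branched-chain aminotransferase, rose from 30.3 ± 2.65 to 90.4 ± 6.76 RPM (1.55, adjusted p = 0.0015), and ASL, argininosuccinate lyase, from 36.8 ± 4.49 to 74.6 ± 7.59 RPM (1.00, adjusted p = 0.011). ASL lies on chromosome 7, as ASNS does, and with the chromosome median taken off its log2 difference was 0.48. GLUL, glutamine synthetase, was at the floor in HuCCT1/CD90+ and at least 9.17-fold lower than its mean of 3.20 ± 0.97 RPM in HuCCT1/CD90-. MTHFD1L, of mitochondrial one-carbon metabolism, fell from 60.8 ± 6.44 to 38.2 ± 1.91 RPM (-0.65, adjusted p = 0.015, blocked 0.061). PSPH, the last enzyme of serine synthesis, which was picked after its values were seen as the partner of PHGDH and PSAT1, had 31.6 ± 13.6 and 56.1 ± 19.2 RPM (a log2 difference of 0.84, adjusted p = 0.32, or 0.016 by edgeR after a filter and 0.15 by DESeq2). PSPH lies on chromosome 7 as well, and with the chromosome median taken off its difference was 0.31.

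The cytoplasmic aminoacyl-tRNA synthetases, which charge tRNAs and many of which ATF4 induces, had log2 differences from -0.33 to 0.70. Of 21 genes (XPOT, a tRNA exporter, included), 1 was higher and 1 lower, against 9.41% and 9.52% of all genes. The median log2 fold change was 0.094. With the replicate block 2 were higher and 0 lower, against 6.72% and 6.4% of all genes. On recovered reads edgeR after a filter (44.4% of genes called) gave 2 higher and 1 lower, and DESeq2 (37%) 1 higher and 1 lower. WARS rose from 284 ± 9.57 to 345 ± 14.5 RPM (a log2 difference of 0.28, adjusted p = 0.018), and DARS fell from 251 ± 13.02 to 199 ± 7.46 RPM (-0.33, adjusted p = 0.018, blocked 0.10). Neither passed when only genes averaging at least 1 RPM were fitted (adjusted p = 0.14 and 0.085). In that fit 1 gene of the list passed, GARS, named with MARS after their values were seen. GARS averaged 90.9 ± 27.7 RPM in HuCCT1/CD90- against 145.7 ± 29.7 RPM in HuCCT1/CD90+, higher in 3 of 3 pairs, with an adjusted p of 0.19 by limma over all genes, 0.028 on genes averaging at least 1 RPM, 0.0070 by edgeR and 0.0037 by DESeq2. MARS averaged 226 ± 108 against 340 ± 29.9 RPM, also higher in 3 of 3 pairs (adjusted p = 0.35 by limma, 0.041 by edgeR and 0.23 by DESeq2). Between libraries of a line, 10 of the 21 correlated above 0.8 with the mean deviation of the 8 genes, against 13.4% of all 12062 genes.

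Of the 21 genes that carry the stress signal to ATF4, feed it back or act as its partners, 3 were higher and none lower by limma, against 9.41% and 9.52% of all genes. With the replicate block 1 was higher and 1, CEBPD, lower, against 6.72% and 6.4% of all genes. At an unadjusted p up to 0.05 without the block, 5 were higher and 1 lower (31.1% of all genes in either direction). On recovered reads edgeR after a filter (44.4%) and DESeq2 (37%) each called 5 higher and 2 lower. EIF2B5, the catalytic subunit of the exchange factor that phosphorylated eIF2 inhibits, rose from 30.4 ± 2.10 to 54.8 ± 0.45 RPM (a log2 difference of 0.83, adjusted p = 0.0019). The eIF2 kinase genes EIF2AK1 (HRI) and EIF2AK3 (PERK) rose with log2 fold changes of 0.52 (adjusted p = 0.013, blocked 0.054) and 0.49 (adjusted p = 0.043, blocked 0.15). EIF2AK1 lies on chromosome 7, and with the chromosome median of 0.52 taken off its log2 difference was 0.00078. EIF2AK4, the gene of the amino acid sensing kinase GCN2, showed a log2 difference of -0.27 (adjusted p = 0.39). PPP1R15A, or GADD34, which directs dephosphorylation of eIF2, had 29.5 ± 18.7 and 77.3 ± 23.4 RPM without overlap (log2 fold change 1.49, adjusted p = 0.13, or 0.0052 on genes averaging at least 1 RPM, 0.00084 by edgeR after a filter and 0.030 by DESeq2). NUPR1 had 30.1 ± 21.6 and 6.90 ± 1.70 RPM with overlap (log2 fold change -1.60, adjusted p = 0.30). Its adjusted p was 0.036 on genes averaging at least 1 RPM, 0.00075 by edgeR after a filter and 0.023 by DESeq2. NUPR1 lies on chromosome 16, and with the chromosome median taken off its log2 difference was -1.30. CEBPD had 3.77 ± 1.70 and 1.58 ± 0.62 RPM (a log2 difference of -0.85, adjusted p = 0.18, blocked 0.048). EIF2AK4, PPP1R15A, NUPR1 and CEBPD were named after their values were seen.

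Other ATF4 targets gave a median log2 fold change near 0, at 0.033. Of the 18 genes in the table, 1 passed, against 18.9% of all genes. This was FAM129A (NIBAN1), which fell from 373 ± 70.1 to 75.7 ± 8.26 RPM (a log2 difference of -2.27, adjusted p = 0.0031). FAM129A lies on chromosome 1, and with the chromosome median taken off its difference was -1.96. By limma over all genes, 0 were higher and 2 lower at an unadjusted p up to 0.05 (31.1% of all genes in either direction). By limma on genes averaging at least 1 RPM (41.7%), 1 was higher and 5 lower, while edgeR after a filter (44.4%) called 1 higher and 5 lower and DESeq2 (37%) 1 higher and 3 lower. Between libraries of a line, 8 of the 15 averaging at least 1 RPM correlated above 0.8 with the mean deviation of the 8 genes. Of all 12062 such genes it was 13.4%. SQSTM1, VEGFA and EIF4EBP1 of this list correlated at 0.99.

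**Figure D4:**
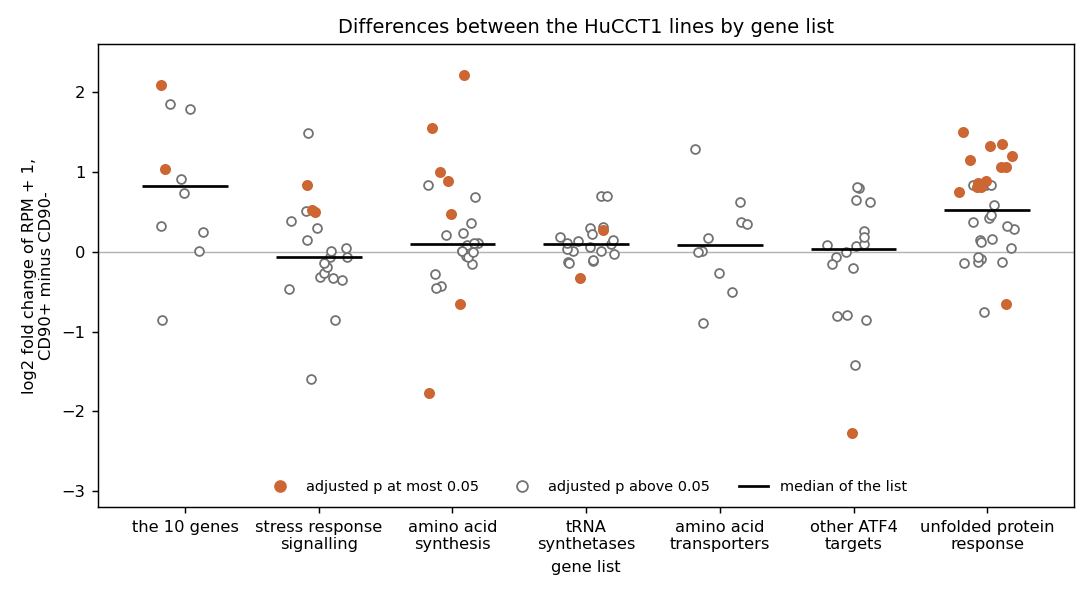
Log2 fold change (HuCCT1/CD90+ minus HuCCT1/CD90-) of each gene in the 10-gene set and in 6 wider lists, with filled points for an adjusted p up to 0.05 and bars for the median of the list. The unfolded protein response list has 12 filled points above 0 and 1 below, and the transporter list has none.

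Genes of the unfolded protein response of the endoplasmic reticulum, which is largely driven by ATF6 and XBP1 beside ATF4, were the most often called of the 6 lists. Of 32 genes, 12 were higher and 1 lower in HuCCT1/CD90+, against 9.41% and 9.52% of all genes, and 19 did not pass. The median log2 fold change was 0.52. On genes averaging at least 1 RPM, 16 of the 32 were higher and 2 lower, against 20.6% and 21.1% of such genes. With the replicate block 10 were higher and 2 lower, against 6.72% and 6.4% of all genes. SDF2L1, an endoplasmic reticulum protein that works with chaperones, rose from 28.4 ± 4.94 to 82.0 ± 11.3 RPM (2.88-fold on the means, adjusted p = 0.0084). CRELD2, induced by stress of this compartment, rose from 45.4 ± 2.95 to 115 ± 7.50 RPM (a log2 difference of 1.32, adjusted p = 0.0013). PDIA4, a disulfide isomerase gene on chromosome 7, rose from 8.62 ± 0.33 to 24.3 ± 7.92 RPM (a log2 difference of 1.35, adjusted p = 0.024, blocked 0.075). With the chromosome median taken off, the log2 difference of PDIA4 was 0.83. HSPA5, the gene of the chaperone BiP, rose from 735 ± 22.2 to 1235 ± 60.9 RPM (a log2 difference of 0.75, adjusted p = 0.0018). HSPA5 was named after its values were seen. EDEM3, which trims sugars of misfolded glycoproteins, fell from 92.7 ± 15.1 to 58.0 ± 4.07 RPM (-0.66, adjusted p = 0.044, blocked 0.067). EDEM3 lies on chromosome 1, and with the chromosome median taken off its log2 difference was -0.34.

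HERPUD1 stands between these lists, as a target of both ATF4 and the unfolded protein response, and its start site window held an element of each kind. Between libraries of a line, 5 of the 32 genes of the unfolded protein response correlated above 0.8 with the mean deviation of the 8 genes, and their median correlation was 0.19, against 0.13 over all 12062 genes. For the transporters the median was 0.93. In the amino acid synthesis list 7 of 21 genes were above 0.8, and in the stress signalling list 4 of 20. Of all 12062 genes it was 13.4%. Whether the lists differ in this respect was not tested.

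**Figure D5:**
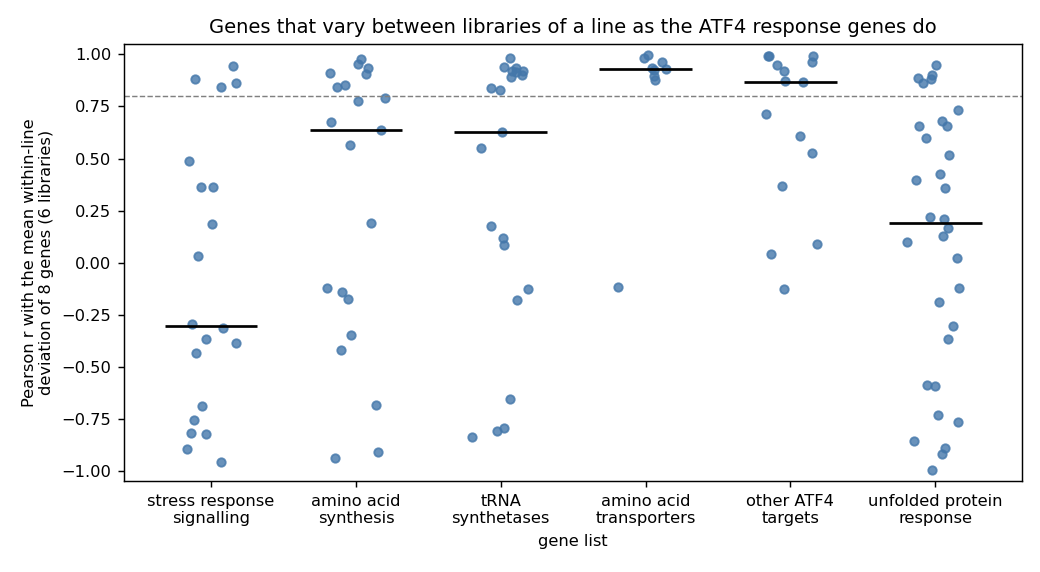
Pearson correlation over the 6 libraries between the within-line deviation of each listed gene averaging at least 1 RPM and the mean within-line deviation of the 8 ATF4 response genes, by list, with bars for the median and a dashed line at 0.8. Of the transporters 8 of 9 lie above the dashed line, and of the unfolded protein response genes 5 of 32.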

How the data were processed

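HuCCT1/CD90- and HuCCT1/CD90+ cells were profiled in 3 libraries each. The authors made amplicon libraries with the Ion AmpliSeq Transcriptome panel, counted reads with the ampliSeqRNA plugin of Torrent Suite and deposited RPM values, scaled to the library total, of 20811 genes. In all 6 libraries 3805 genes had no read. The submitters' processing notes name hg19 and the Transcriptome Analysis Console. The table gives no coordinates, and chromosomes and start site windows were taken from RefSeq (GRCh38.p14). The values were whole multiples of 1 read for 100% of values (tolerance 0.01 reads), which gave 8587634 to 10551516 reads per library. No library was a copy of another, since each pair differed beyond sampling noise (chi-square per degree of freedom 9.66 to 94.5).

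Values were taken to log2(RPM + 1) and compared with limma 3.58.1 in R 4.3.3 (lmFit and eBayes, no filter, 20811 genes), with Benjamini-Hochberg adjustment over the table. An adjusted p with no other tool beside it comes from this fit. The replicate numbers were taken to pair the libraries, since deviations from the line means correlated at 0.18 to 0.32 for same-numbered and at -0.29 to 0.071 for differently numbered libraries. This check is the only source of the pairing, as the labels do not say what the numbers mark. Alternatives were offsets of 0.1 and 5 RPM, minimum means of 1 and 10 RPM, quantile normalization, median centring, trend and robust eBayes, the replicate block, each library left out, and edgeR 4.0.16 and DESeq2 1.42.0 on recovered reads.

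The genes and lists were chosen with earlier results of these data known. Named were the 10 genes, the 3 largest rises and 3 largest falls of each wider list among genes that passed averaging at least 1 RPM, and the 5 genes most like the set or ATF4. MAP1LC3B was not matched by its symbol. The scripts were tested on simulated data.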

Additional observations from a re-analysis of the deposited data

How the results depend on the processing

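The number of the 10 genes called depended on the fit. It was 2 in the fit without a filter and 5 with genes of a mean of at least 1 RPM (41.7% of genes called), 4 averaging at least 10 RPM, 4 with median centring, 5 with edgeR after a filter (44.4% called), 6 with edgeR without one, 4 with DESeq2 (37% called) and 4 by the call rule of the study. With an offset of 5 RPM it was 3, with 18.5% of all genes called, and with quantile normalization 3 (19.2%). The 2 minimum means leave out genes with no reads. Why the number differed between these fits was not tested. With 1 library left out (10.6% to 14.1% of genes called) it was 0 to 1 by limma. At an unadjusted p up to 0.05 it was then 3 to 4 of the 10, against 5518 to 5995 of all 20811 genes. Of the 126 genes of the wider lists, 26 were called, against 18.9% of all genes. The count was 42 on genes averaging at least 1 RPM (41.7% of such genes called) and 43 with DESeq2 (37%). With edgeR it was 49 after a filter (44.4%) and 53 without one (27.6%). With 1 library left out it was 14 to 20 (10.6% to 14.1%). Over all genes it was 3939, and 2197 to 2932 with 1 library left out. The replicate block gave 3 of the 10 genes, 22 of the wider lists and 2729 of all genes, and for the 10 genes this pairing changed only the calls of ASNS, ATF3 and PHGDH. The log2 fold change of CHAC1 ran from -0.36 to 1.73 with 1 library left out, and turned negative without HuCCT1/CD90- replicate 1, the only change of sign among the 9 genes with a fold. Scaling moved the median of genes averaging at least 1 RPM from -0.0086 to -0.035 at most.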
